A study of Homo sapiens with 6 samples.

Results

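The basal and stress keratins were examined in SCC-9 cells, an established human line that was derived from a tongue squamous carcinoma. They are the 8 genes KRT5, KRT14, KRT15, KRT6A, KRT6B, KRT6C, KRT16 and KRT17, found by gene symbol among the 25349 genes with a read count. Each symbol matched 1 row. The cells had been transfected at 10 nM on day 0 and again on day 2, and RNA was taken on day 4. A total of 3 libraries came from cells given an exon 7 siRNA for MKI67, which encodes the proliferation protein Ki67 (siE7, titled siKi), and 3 came from cells given the nonspecific control siRNA (siNC, titled NS). Both groups were grown in DMEM and F12 with 10% serum and 400 ng/mL hydrocortisone, a glucocorticoid, and both received a Lipofectamine reagent. The study's methods list several siRNAs against exon 7, and the one used for these libraries is not given in the sources used here, so an effect of 1 siRNA sequence cannot be told apart from that of MKI67 loss. The labels do not say that the libraries came from separate cultures, so p-values measure the spread between these libraries only.

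Keratins form the intermediate filaments of epithelial cells. Every filament is built from pairs of a type I chain, which is acidic, and a type II chain, which is neutral to basic, and a chain without a partner is generally unstable. In stratified epithelium the dividing basal cells make the type II keratin KRT5 with the type I keratins KRT14 and KRT15. The type II keratins KRT6A, KRT6B and KRT6C and the type I keratins KRT16 and KRT17 are called stress keratins, because wounded, inflamed and hyperproliferating epidermis makes them, as do many squamous carcinomas. The type II genes lie together on chromosome 12 and the type I genes on chromosome 17.

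The siNC libraries held 25895920 to 28242947 counts and the siE7 libraries 25608192 to 29550264. MKI67 fell from 1059 ± 26.7 CPM (counts scaled to the library size) with siNC to 115 ± 8.70 CPM with siE7 (SD, n = 3), as the labels would have it. The siE7 replicate 1 library stood apart from siE7 replicates 2 and 3 on the second principal component, which held 19.8% of the variance, and each of the 8 keratins had a higher CPM in it than in either of them. Values without it are given where they change a call, a direction or the size of a difference. All 9 squamous epithelial markers were read, with a summed level of 19109 to 20362 CPM with siNC and 16955 to 22137 CPM with siE7. They include KRT5 and KRT14, 2 of the 8 keratins examined, which held most of this sum. KRT14 alone was at 9221 to 9804 CPM with siNC and 10430 to 14194 CPM with siE7. Of the 9 markers, 1 (PERP) was called higher and 5 (CDH1, SFN, EPCAM, KRT5 and TP63) lower by the test described below. Over all tested genes 18.0% were called higher and 16.0% lower. Of the 7 fibroblast markers 2 reached 10 counts in every library, and their list summed to 16.5 to 19.7 CPM and 18.3 to 24.1 CPM. Of the 4 immune markers 1 did so, at a sum of 1.34 to 3.60 CPM over all libraries, and PTPRC and CD3E had no count. The endothelial markers and the melanocyte marker PMEL summed to less than 1 CPM in every library, and MLANA and TYR had no count.

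Near-identical copies decide how well reads can be assigned within this family. The coding sequences of KRT6A and KRT6B were 97.5% identical, those of KRT6A and KRT6C 97.9% and those of KRT6B and KRT6C 98.5%. The 90-base coding windows below were those in which the closest pair of KRT6 genes differed at the most bases. They are shown because reads can be placed on 1 KRT6 gene only through such bases. They lie in exon 2 on the minus strand of GRCh38, at chr12:52491530-52491619 for KRT6A, chr12:52450414-52450503 for KRT6B and chr12:52472074-52472163 for KRT6C. Capitals mark the 10 positions at which the 3 genes are not all alike, and the closest pair differs at 4 of them.
KRT6A: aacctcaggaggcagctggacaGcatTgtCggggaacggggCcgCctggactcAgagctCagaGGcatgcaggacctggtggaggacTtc
KRT6B: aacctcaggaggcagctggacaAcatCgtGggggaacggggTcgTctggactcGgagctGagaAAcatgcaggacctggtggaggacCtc
KRT6C: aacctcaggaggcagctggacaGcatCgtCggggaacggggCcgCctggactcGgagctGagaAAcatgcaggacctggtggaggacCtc

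KRT14, KRT16 and KRT17 are further apart. Their coding sequences were 85.2% identical for KRT14 and KRT16, 78.2% for KRT14 and KRT17 and 72.5% for KRT16 and KRT17. The window chosen in the same way lies in exon 3 on the minus strand, at chr17:41584323-41584412 for KRT14, chr17:41611411-41611500 for KRT16 and chr17:41622421-41622510 for KRT17. It is shown because the fold changes of these type I genes are compared, and such bases tell their reads apart. Capitals mark 22 variable positions, of which at least 10 separate any pair.
KRT14: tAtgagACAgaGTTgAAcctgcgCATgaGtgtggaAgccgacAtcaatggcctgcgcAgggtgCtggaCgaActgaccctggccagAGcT
KRT16: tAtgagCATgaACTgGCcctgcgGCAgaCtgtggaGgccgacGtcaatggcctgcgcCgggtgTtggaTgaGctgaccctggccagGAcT
KRT17: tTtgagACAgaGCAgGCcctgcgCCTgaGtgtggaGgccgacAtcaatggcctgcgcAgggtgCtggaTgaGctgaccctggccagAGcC

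The length of 1 sequencing read was 150 bases. Of all 150-base windows of the KRT6A transcript, 9.26% were found unaltered in KRT6C, and 12.7% of those of KRT6B and 16.3% of those of KRT6C were found in another of 100 keratin genes and pseudogenes. The share was 0.605% for KRT14 and 0.729% for KRT16, and no window of KRT5, KRT15 or KRT17 was shared. The counts of KRT6C amounted to 0.10% to 0.194% of those of KRT6A, so its values are uncertain. KRT6B also held few counts, 289 to 706 per library against 64857 to 87028 for KRT6A, and shares this limit in part. KRT17 overlaps a long noncoding RNA gene on the other strand and KRT15 a microRNA gene, and whether the counting used the strand is not given in the sources used here.

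**Figure D1:**
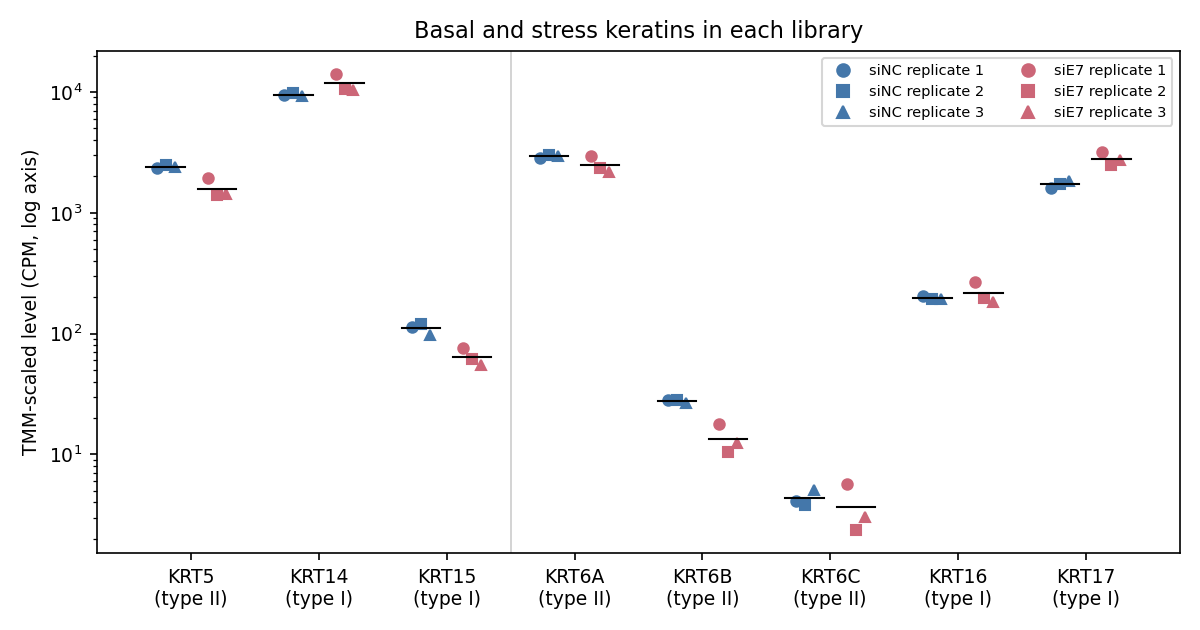
TMM-scaled level in CPM (log axis) of each of the 8 keratins in each of the 6 libraries, with siNC in blue, siE7 in red, 1 symbol per replicate and a black line at the group mean. KRT17 lies higher in every siE7 library, KRT5, KRT15 and KRT6B lie lower in every siE7 library, and the siE7 replicate 1 circle is the highest siE7 point of every gene.

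Levels of different genes were compared as CPM per kilobase of the main transcript. With siNC the order was KRT14 at 5794 ± 181, KRT6A at 1270 ± 27.3, KRT17 at 1138 ± 80.1 and KRT5 at 1075 ± 32.7 CPM per kilobase (SD, n = 3). The lower 4 were KRT16 at 118 ± 4.06, KRT15 at 64.7 ± 6.83, KRT6B at 12.1 ± 0.408 and KRT6C at 1.88 ± 0.282 CPM per kilobase. Of these neighbours KRT17 (1055 to 1215) and KRT5 (1044 to 1109) overlapped, and the others did not. With siE7 the order was KRT14 at 7192 ± 1287, KRT17 at 1843 ± 237, KRT6A at 1075 ± 174 and KRT5 at 707 ± 133 CPM per kilobase (SD, n = 3). KRT17 thus stood second, at 1629 to 2098 against 937 to 1271 for KRT6A and 626 to 860 for KRT5, and these ranges did not overlap. The order of the lower 4 was the same, at 130 ± 27.6 for KRT16, 37.8 ± 6.36 for KRT15, 5.87 ± 1.63 for KRT6B and 1.60 ± 0.765 CPM per kilobase for KRT6C.

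The next question was which keratins differed between siE7 and siNC. All 8 passed the filter on low counts. KRT17 rose, KRT5, KRT15 and KRT6B fell, and KRT14, KRT6A, KRT6C and KRT16 did not pass the test (edgeR's quasi-likelihood test, Benjamini-Hochberg adjusted p-value under 0.05 over 14661 tested genes). Over all tested genes 18.0% were called higher and 16.0% lower with siE7, against 1 and 3 of the 8 keratins. The median log2 fold change of the 8 was -0.23 and that of all tested genes 0.08. A differentially expressed gene (DEG) also had a log2 fold change beyond 1. KRT6B was the only DEG among the 8, and 4.84% of all tested genes were DEGs in that direction. The siNC and siE7 libraries did not overlap for 5 of the 8 keratins, against 47.6% of all tested genes.

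Among the basal keratins, the type II chain KRT5 (chr12:52514575-52520530, ENSG00000186081.12) was read at 2337, 2483 and 2398 CPM in siNC replicates 1, 2 and 3 and at 1926, 1401 and 1423 CPM in siE7 replicates 1, 2 and 3. Every siE7 library lay below every siNC library, and siE7 replicate 1 lay closest to them. The mean fell from 2406 ± 73.1 to 1583 ± 297 CPM (SD, n = 3), a log2 fold change of -0.60 (standard error 0.133, edgeR adjusted p = 0.0050). The call was kept in 18 of 18 alternative settings, at -0.83 to -0.44.

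KRT14 (chr17:41582279-41586895, ENSG00000186847.6), the main type I partner of KRT5, was not called. It was read at 9414, 9804 and 9221 CPM in siNC replicates 1, 2 and 3 and at 14194, 10674 and 10430 CPM in siE7 replicates 1, 2 and 3. Each siE7 library lay above each siNC library, but siE7 replicate 1 was far above the rest. The gap on the log2 scale, 0.31 (standard error 0.129), did not pass the test (edgeR adjusted p = 0.083). It was 0.09 without siE7 replicate 1. It was called in 4 of 18 alternatives, with library totals and no TMM factor (0.47), with the GC trend removed (0.31, adjusted p = 8.2e-04), with that and a replicate block, and without siE7 replicate 3 (0.39). By counts, which are not per length, KRT14 ranked 3 among all genes in each siNC library and 1 in each siE7 library.

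KRT15 (chr17:41513745-41522529, ENSG00000171346.16), a second type I keratin of basal cells, is known for marking resting cells of the basal layer and hair follicle. Its levels were 114, 120 and 97.7 CPM in siNC replicates 1, 2 and 3 and 76.7, 61.8 and 55.4 CPM in siE7 replicates 1, 2 and 3. All siE7 libraries lay below all siNC libraries. The mean fell from 111 ± 11.7 to 64.6 ± 10.9 CPM (SD, n = 3), a log2 fold change of -0.78 (standard error 0.141, edgeR adjusted p = 0.0017), and 18 of 18 alternatives kept the call at -0.98 to -0.62. The basal type I keratins KRT14 and KRT15 thus stood on opposite sides of 0.

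Among the stress keratins, KRT17 (chr17:41619442-41624842, ENSG00000128422.17) was the one that rose. This type I chain is a classic product of wounded epidermis and of many carcinomas. It was read at 1600, 1735 and 1843 CPM in siNC replicates 1, 2 and 3 and at 3183, 2472 and 2734 CPM in siE7 replicates 1, 2 and 3. The lowest siE7 library was well above the highest siNC library. The mean rose from 1726 ± 122 to 2796 ± 360 CPM (SD, n = 3), which was 1.62-fold, or 0.70 on the log2 scale (standard error 0.120, edgeR adjusted p = 0.0013). The call was kept in 18 of 18 alternatives at 0.53 to 0.86, the lowest being without siE7 replicate 1. The pseudogene copy KRT17P2 held 18 to 29 counts with siNC and 33 to 83 with siE7 (log2 fold change 0.95, edgeR adjusted p = 0.067), too few to weigh on KRT17.

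KRT16 (chr17:41609778-41615899, ENSG00000186832.9), the usual type I partner of KRT6, was not called. Its levels were 204, 192 and 193 CPM in siNC replicates 1, 2 and 3 and 268, 197 and 183 CPM in siE7 replicates 1, 2 and 3. The groups overlapped, and only siE7 replicate 1 was clearly higher. The log2 fold change was 0.14 (standard error 0.143, edgeR adjusted p = 0.48). KRT16 was called in 0 of 18 alternatives, and without siE7 replicate 1 its log2 fold change was -0.11. Of its pseudogene copies KRT16P6 held 2207 to 2345 counts with siNC and 2031 to 2418 with siE7 (-0.25, edgeR adjusted p = 0.085), and KRT16 summed with its copies gave 0.02. Over the aligned bases KRT16P6 was 83.3% identical to the KRT16 coding sequence. It is thus not a near-identical copy, and only 0.729% of the 150-base windows of KRT16 were shared with any keratin gene or pseudogene compared. KRT16P2 had 12 to 15 counts with siNC and 1 to 7 with siE7 (-2.31, edgeR adjusted p = 0.019), and KRT16P1, KRT16P3, KRT16P4 and KRT16P5 were not called. The remaining KRT17 copies, KRT17P1 and KRT17P3 to KRT17P6, had too few counts to be tested.

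The 3 KRT6 genes encode the type II stress keratins and were read at very different levels. KRT6A (chr12:52487176-52493257, ENSG00000205420.11) was at 2865, 2990 and 2936 CPM in siNC replicates 1, 2 and 3 and at 2934, 2348 and 2163 CPM in siE7 replicates 1, 2 and 3. The siE7 replicate 1 library lay among the siNC libraries and the others lay below them. The log2 fold change was -0.24 (standard error 0.124, edgeR adjusted p = 0.16), so KRT6A was not called. It was called in 3 of 18 alternatives, without siE7 replicate 1 (-0.44, adjusted p = 3.5e-08) and with the GC trend removed, without and with a replicate block (-0.23 in both).

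KRT6B (chr12:52446651-52452146, ENSG00000185479.6) was at 28.5, 28.2 and 26.7 CPM in siNC replicates 1, 2 and 3 and at 17.7, 10.5 and 12.4 CPM in siE7 replicates 1, 2 and 3. The siNC libraries were nearly equal and all siE7 libraries lay below them. The mean fell from 27.8 ± 0.940 to 13.5 ± 3.75 CPM (SD, n = 3), a log2 fold change of -1.04 (standard error 0.184, edgeR adjusted p = 0.0015). It was called in 17 of 17 alternatives at -1.34 to -0.88, where the values with library totals and without siE7 replicate 2 or 3 fell short of the DEG limit. The call rests on 289 to 706 counts per library. Any reads of the near-identical KRT6A placed on KRT6B cannot be told apart in them. KRT6C (chr12:52468516-52473805, ENSG00000170465.10) was at 4.09, 3.84 and 5.07 CPM in siNC replicates 1, 2 and 3 and at 5.70, 2.35 and 3.04 CPM in siE7 replicates 1, 2 and 3. Its groups overlapped, with siE7 replicate 1 the highest library of all. Its log2 fold change of -0.23 (standard error 0.302, edgeR adjusted p = 0.59) turned to 0.0090 without siE7 replicate 2 and to -0.74 (adjusted p = 0.0037) without siE7 replicate 1. With the 3 KRT6 genes summed the log2 fold change was -0.25 (edgeR adjusted p = 0.15), which is that of KRT6A, since KRT6A held most of their counts.

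**Figure D2:**
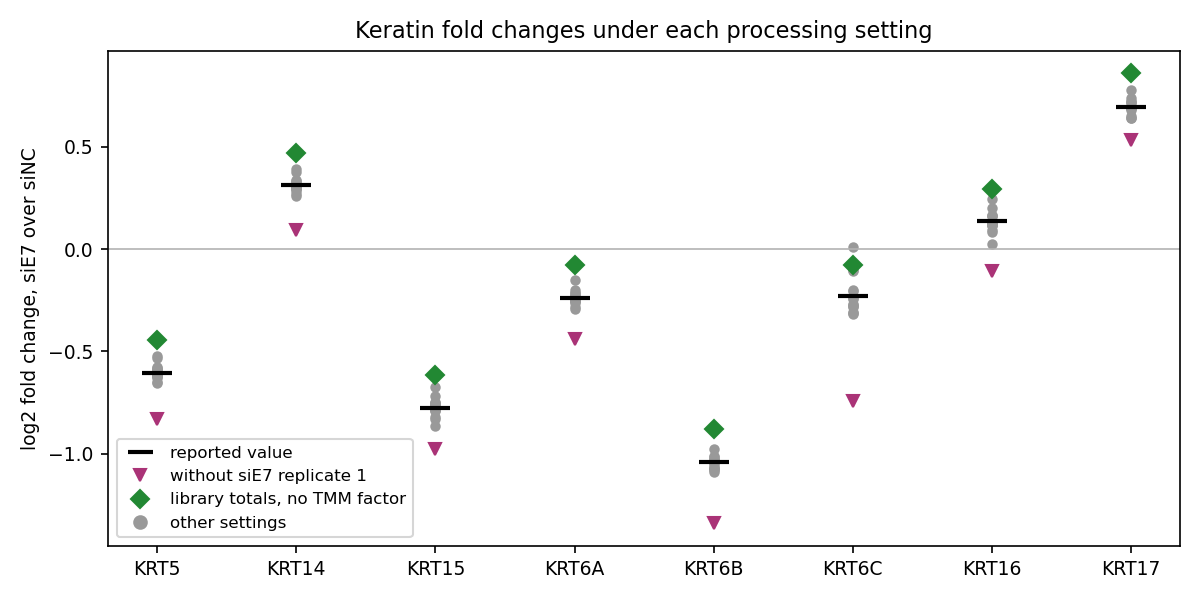
Log2 fold change of siE7 over siNC for each keratin under the reported setting (black line) and its alternatives, with the fit without siE7 replicate 1 as purple triangles and the fit with library totals as green diamonds. KRT5, KRT15 and KRT6B stay below 0 and KRT14 and KRT17 above 0 in every setting, and KRT16 and KRT6C lie on both sides.

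The share of all counts in a library needs no scaling factor, but it depends on the make-up of the rest of the library. With library totals alone the median log2 fold change of all tested genes was 0.25. In that fit 4024 genes were called higher and 1632 lower with siE7, so a gain in share was not particular to the keratins. The 8 keratins took 1.58%, 1.63% and 1.56% of all counts in siNC replicates 1, 2 and 3 and 2.27%, 1.85% and 1.87% in siE7 replicates 1, 2 and 3. Every siE7 library lay above every siNC library, by 0.403 percentage points between the means (exact two-sided permutation p = 0.1, the smallest that 3 against 3 libraries allow). With library sizes multiplied by their TMM factors, which were 0.936 to 0.954 for siNC and 1.00 to 1.10 for siE7, the difference was 0.204 points (exact permutation p = 0.3), and without siE7 replicate 1 it was 0.267 points. The basal keratins together went from 1.13% ± 0.0359 to 1.41% ± 0.183 of all counts and the stress keratins from 0.461% ± 0.0108 to 0.582% ± 0.0539 (SD, n = 3). The basal difference of 0.282 points was 0.177 without siE7 replicate 1 and 0.142 with TMM-scaled library sizes, and the stress difference of 0.121 points was 0.0903 and 0.0627. Each limit was applied alone. On TMM-scaled levels, siE7 replicates 2 and 3 had 10674 and 10430 CPM of KRT14 (siNC 9221 to 9804). They had 1401 and 1423 CPM of KRT5 (siNC 2337 to 2483). Their summed stress keratins were at 5029 and 5096 CPM (siNC 4702 to 5003), so little of either difference was left.

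KRT14 made up most of these sums. It took 0.898%, 0.923% and 0.863% of all counts in siNC replicates 1, 2 and 3 and 1.42%, 1.15% and 1.15% in siE7 replicates 1, 2 and 3, with no overlap. KRT17 took 0.153%, 0.163% and 0.172% against 0.320%, 0.267% and 0.300% in the same order, also with no overlap. On TMM-scaled levels KRT17 was called and KRT14 was not. There the log2 fold change of KRT14 was 0.31, and 0.09 without siE7 replicate 1. Within the counts of the 8 keratins, KRT14 made up 56.2% ± 0.885 with siNC and 62.1% ± 0.731 with siE7, and KRT17 10.2% ± 0.710 and 14.9% ± 1.07 (SD, n = 3). The stress keratins made up 28.9% ± 0.855 of the 8 with siNC and 29.2% ± 0.812 with siE7, so their share among the 8 was not distinguishable between the groups (exact permutation p = 0.8).

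**Figure D3:**
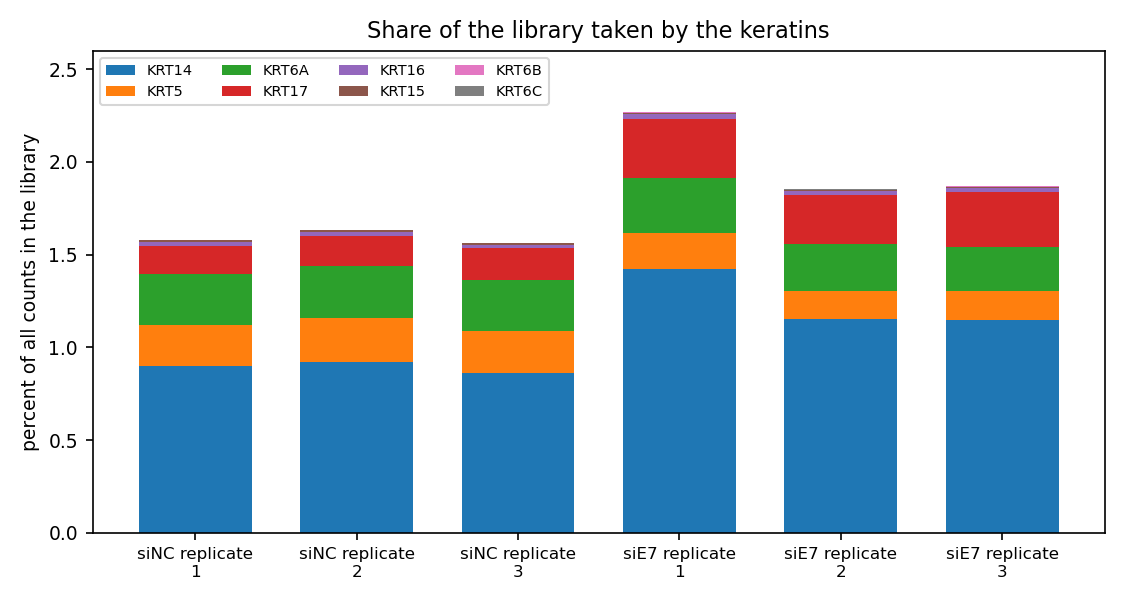
Percent of all counts in each library taken by each of the 8 keratins, stacked. The siNC bars reach 1.56% to 1.63% and the siE7 bars 1.85% to 2.27%, with KRT14 (blue) and KRT17 (red) larger and KRT5 (orange) smaller in the siE7 libraries.

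Ratios of counts within a library ask whether the balance among the keratins differed, free of any scaling between libraries. The log2 ratio of stress to basal keratins was -1.34, -1.33 and -1.23 in siNC replicates 1, 2 and 3 and -1.34, -1.27 and -1.22 in siE7 replicates 1, 2 and 3. The groups overlapped almost entirely and the means differed by 0.019 (exact two-sided permutation p = 0.8). This rests on where KRT17 is placed, since with KRT17 counted among the basal keratins the difference was -0.46 (exact permutation p = 0.1). The log2 ratio of type II to type I keratins was -1.11, -1.11 and -1.08 in siNC replicates 1, 2 and 3 and -1.86, -1.83 and -1.90 in siE7 replicates 1, 2 and 3. Here the groups were far apart against their spread, -1.10 ± 0.0172 with siNC and -1.86 ± 0.0313 with siE7 (SD, n = 3), a difference of -0.76 (exact two-sided permutation p = 0.1, the smallest possible). It stayed between -0.78 and -0.75 when each library was left out in turn, and siE7 replicate 1, which stood apart in its levels, lay between siE7 replicates 2 and 3 in this ratio.

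The same held for single pairs. A total of 6 pair ratios were compared, and in each of them all siE7 libraries lay on 1 side of all siNC libraries (exact two-sided permutation p = 0.1 each, 0.1 after adjustment over the 6 ratios). The ratios were not among the planned comparisons and share members, so they are not separate results. The share of all gene pairs without overlap was not computed. Taken singly, 47.6% of all tested genes did not overlap between the groups. The log2 ratio of KRT14 to its partner KRT5 was 1.98 ± 0.0336 with siNC and 2.90 ± 0.0304 with siE7 (SD, n = 3), a difference of 0.92. The log2 ratio of KRT17 to KRT6A went from -0.77 ± 0.0857 to 0.18 ± 0.141, by 0.94, so that KRT17 had fewer counts than KRT6A in each siNC library and more in each siE7 library. The log2 ratio of KRT16 to KRT6A differed by 0.37, at -3.90 ± 0.0783 with siNC and -3.53 ± 0.0686 with siE7.

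Within the type I keratins the log2 ratio of KRT17 to KRT16 was higher with siE7 by 0.57 (3.13 ± 0.148 with siNC and 3.71 ± 0.173 with siE7, SD, n = 3) and that of KRT17 to KRT14 by 0.39 (-2.46 ± 0.122 and -2.07 ± 0.119). Within the type II keratins the log2 ratio of KRT6B to KRT6A went from -6.72 ± 0.0636 to -7.54 ± 0.234, a difference of -0.82. The balance by type is therefore a balance of the abundant members, since KRT15, a type I keratin, fell. The GC content of the main transcripts was 60.8% for KRT14, 61.0% for KRT16 and 61.9% for KRT17, against 55.8% to 56.9% for KRT5, KRT15 and the KRT6 genes. After removal of the libraries' GC trends, no log2 fold change of the 8 moved by more than 0.015.

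**Figure D4:**
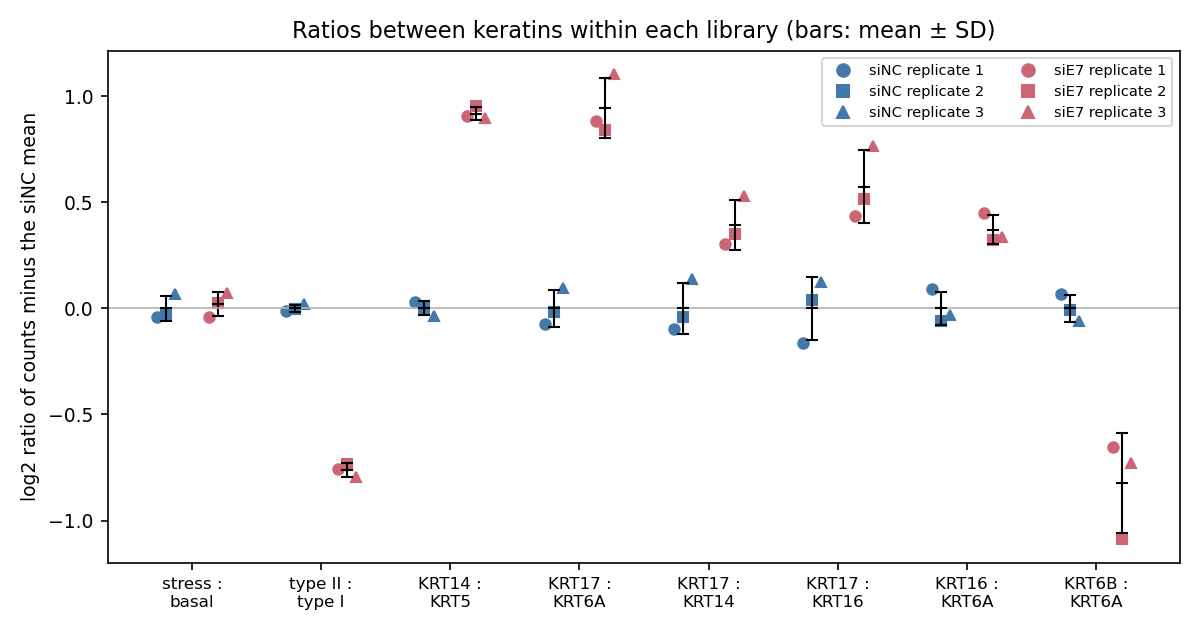
Log2 ratio of counts between keratins or keratin groups in each library, minus the siNC mean, with siNC in blue, siE7 in red and bars at mean ± SD (n = 3). The stress to basal ratio overlaps between the groups, the type II to type I ratio of siE7 lies 0.76 below that of siNC, and KRT14 to KRT5 and KRT17 to KRT6A lie 0.92 and 0.94 above.

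The other keratins of the cells went down or were not called. Simple keratins, which one-layered epithelia and many carcinomas make, were a list of 7 genes, of which 6 could be tested. Of these 6 fell and 0 rose, in the test and in 16 of 16 alternatives, with a median log2 fold change of -1.14. Over all tested genes 16.0% fell and 18.0% rose in the test. KRT8, the main type II simple keratin, was at 2347, 2361 and 2285 CPM in siNC replicates 1, 2 and 3 and at 1385, 1052 and 1055 CPM in siE7 replicates 1, 2 and 3 (log2 fold change -1.0, edgeR adjusted p = 1.7e-04). Its type I partner KRT18 fell from 1071 ± 21.6 to 444 ± 70.3 CPM (SD, n = 3), by 1.27 on the log2 scale (edgeR adjusted p = 3.3e-05). KRT80, a type II keratin of many epithelia, fell from 118 ± 3.08 to 46.6 ± 10.3 CPM (-1.34) and KRT19, a type I keratin, from 159 ± 14.2 to 101 ± 20.9 CPM (-0.66). KRT20 had too few counts to be tested.

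Differentiation keratins, which cells make on leaving the basal layer, were a list of 13 genes, of which 3 could be tested. By edgeR 0 of the 3 were called and 0 had an unadjusted p under 0.05, and DESeq2 and limma-voom also called 0, but 2 were called without siE7 replicate 1. KRT10, the type I keratin of the spinous layer, was at 30.4 ± 3.03 CPM with siNC and 26 ± 1.74 CPM with siE7 (log2 fold change -0.22). KRT9 was at 23.6 ± 1.11 and 18.9 ± 3.78 CPM (-0.32) and KRT13, the type I keratin of internal stratified epithelia such as the tongue, at 1.52 ± 0.576 and 0.934 ± 0.385 CPM (-0.71). KRT1 and KRT4, the type II partners of KRT10 and KRT13, had too few counts to be tested, and KRT2 had no count. All keratin genes together took 2.34% ± 0.0561 of all counts with siNC and 2.42% ± 0.274 with siE7, and the groups overlapped (exact two-sided permutation p = 1.0). The higher siE7 mean came from siE7 replicate 1 at 2.73%, while siE7 replicates 2 and 3, at 2.23% and 2.29%, lay below every siNC library (2.30% to 2.41%). The difference was 0.0744 points with all libraries, -0.083 points without siE7 replicate 1 and -0.19 points with TMM-scaled library sizes. Within this sum the 8 basal and stress keratins made up 68.0% ± 0.552 with siNC and 82.5% ± 0.739 with siE7 (SD, n = 3), higher in each of 3 siE7 libraries (exact two-sided permutation p = 0.1, the smallest possible).

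**Figure D5:**
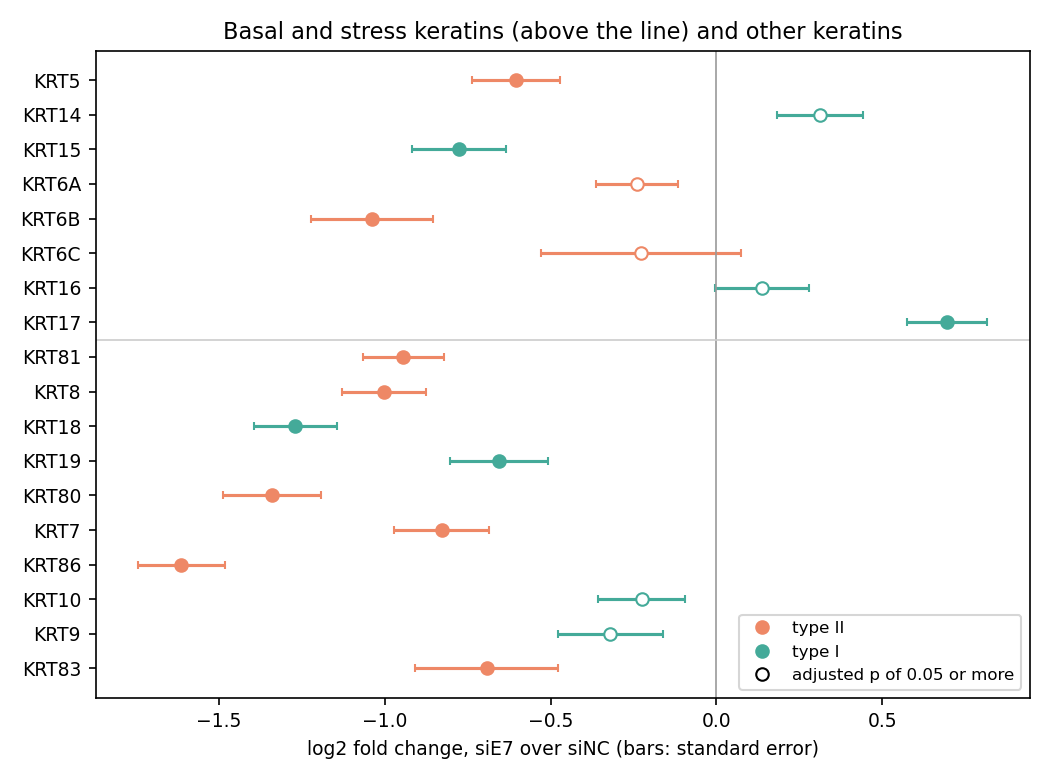
Log2 fold change of siE7 over siNC with its standard error for the 8 basal and stress keratins (above the grey line) and the 10 other tested keratins with the highest mean level, orange for type II and green for type I, with open circles where the adjusted p was 0.05 or more. The points to the right of 0 are the type I keratins KRT17, which was called, and KRT14 and KRT16, which were not.

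Factors known to act on keratin genes were a list of 28, of which 26 were tested, 4 rose, 6 fell and 16 were not called (median log2 fold change -0.05). Over all tested genes 18.0% were higher and 16.0% lower, so these counts are near the background. The count of 10 was 17 without siE7 replicate 1, 16 with the GC trend removed, and 3 to 5 with siNC replicate 1, 2 or 3 or siE7 replicate 3 left out. Calls over all genes shifted with it, from 34.0% to 58.4% without siE7 replicate 1, 50.6% with the GC trend removed, 20.9% to 21.4% without a siNC library and 26.8% without siE7 replicate 3. TFAP2A, the AP-2 factor bound at many basal keratin promoters, fell from 138 ± 6.10 to 54.4 ± 2.97 CPM (SD, n = 3), by 1.35 on the log2 scale (edgeR adjusted p = 8.3e-06). FOSL1, an AP-1 subunit of activated keratinocytes, fell from 416 ± 40.4 to 174 ± 49.3 CPM (-1.26, edgeR adjusted p = 3.2e-04), and KLF4, a factor of differentiating epithelium, rose from 6.0 ± 0.176 to 13.0 ± 1.02 CPM (1.12, edgeR adjusted p = 3.3e-04). The other factors that rose, named after their values were seen, were the AP-1 subunits JUN (0.48, called in 16 of 18 alternatives) and JUNB (0.50, in 15 of 18) and the Hedgehog factor GLI2 (1.57). GLI2 rests on 2 to 17 counts per library and kept its call in 8 of 17 alternatives. The other factors that fell, also named after their values were seen, were PITX1 (-0.50), NFKB1 (-0.41), TP63 (-0.33) and MYC (-0.33). They kept their calls in 12, 13, 12 and 11 of 18 alternatives.

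Partners of keratin filaments, which anchor them to desmosomes and hemidesmosomes or modify them, were a list of 24, all tested. Of these 0 rose, 13 fell and 11 were not called, against 18.0% higher and 16.0% lower over all tested genes, with a median log2 fold change of -0.47. This and the other lists were chosen with earlier results of these data known, so such counts are a description only. The number called was 20 without siE7 replicate 1 and 20 with the GC trend removed, where 58.4% and 50.6% of all genes were called. PPL, the periplakin that links keratins to the cell envelope and desmosomes, was at 244, 247 and 255 CPM in siNC replicates 1, 2 and 3 and at 96.1, 73.5 and 72.9 CPM in siE7 replicates 1, 2 and 3 (log2 fold change -1.62, edgeR adjusted p = 8.3e-06). ITGA6, the integrin chain of hemidesmosomes, fell from 333 ± 12.3 to 103 ± 17.6 CPM (-1.70), and the desmosomal cadherin DSC2 from 36.1 ± 2.01 to 17.2 ± 3.41 CPM (SD, n = 3), by 1.07 on the log2 scale. In these genes the groups did not overlap.

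Signals known to induce stress keratins in wounded epidermis were a list of 19 ligands and receptors, all tested, of which 3 rose, 9 fell and 7 were not called (median log2 fold change -0.47), against 18.0% higher and 16.0% lower over all tested genes. The number called was 16 without siE7 replicate 1, where 58.4% of all genes were called, and 11 to 16 over all alternatives. The cytokine IL1B fell from 74.7 ± 4.89 to 17.0 ± 1.32 CPM (SD, n = 3), by 2.14 on the log2 scale (edgeR adjusted p = 9.4e-07). EGFR, the receptor of the epidermal growth factor family, fell from 298 ± 10.4 to 123 ± 6.08 CPM (-1.27), and OSMR, the receptor chain of oncostatin M, from 46.2 ± 2.35 to 23.8 ± 0.680 CPM (-0.96). In all 3 the SD over the siE7 libraries, replicate 1 included, was smaller than the fall of the mean. Those that rose, named after their values were seen, were the receptor chains IFNGR1 (0.98) and IL20RB (0.50) and the EGFR ligand AREG (0.39, called in 14 of 18 alternatives).

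Products that accompany stress keratins in activated epidermis were a list of 15, of which 12 were tested, 3 rose, 8 fell and 1, LCN2, was not called (log2 fold change -0.28), with a median of -0.83, against 18.0% higher and 16.0% lower over all tested genes. The number called was 8 with siNC replicate 2 or 3 or siE7 replicate 3 left out, where 20.9% to 26.8% of all genes were called. It was 12 without siE7 replicate 1, where 58.4% were. The envelope proteins SPRR1B and SPRR2A fell from 10.1 ± 0.611 to 2.58 ± 0.388 CPM (-1.97) and from 4.05 ± 0.509 to 1.02 ± 0.388 CPM (-1.99), and the inflammatory protein S100A8 fell from 18.8 ± 2.55 to 9.24 ± 1.26 CPM (SD, n = 3), by 1.02 on the log2 scale. Those that rose, named after their values were seen, were CSTA (0.74, called in 13 of 18 alternatives) and the neighbouring, closely related serpin genes SERPINB3 (1.65) and SERPINB4 (3.22), which stood at under 4 CPM in every library. How these lists relate to the keratins was not tested. In bulk RNA, fewer cells of a type and less RNA per cell cannot be told apart.

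The genes whose pattern over the 6 libraries was most like that of the summed stress keratins were looked for among 14614 genes outside the keratins, as a description only. The summed level was 4702, 4949 and 5003 CPM in siNC replicates 1, 2 and 3 and 6409, 5029 and 5096 CPM in siE7 replicates 1, 2 and 3. Pearson's r of log2 levels was 0.997 for TYRO3, 0.996 for CASTOR1, 0.995 for CRTC2, 0.995 for KAT2A and 0.994 for SEC13. All 5 were highest in siE7 replicate 1, as the sum was, and 0 of the 5 were called between the groups (edgeR adjusted p 0.19 to 0.31). The likeness is thus one of siE7 replicate 1 against the other 5 libraries.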

How the data were processed

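Read counts per gene of 6 RNA-seq libraries (stranded, polyadenylated RNA, 150-base paired reads of an Illumina NovaSeq) were used as deposited by the authors, as whole-number counts without normalization. The submitters' processing notes name HISAT2, DESeq2 and GRCh38. The counting tool, the annotation release and the use of strand are not given in the sources used here, and neither is how reads on several copies were counted. Samples were grouped by their titles. The members and lists were chosen with earlier results of these data known.

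Genes were filtered by filterByExpr of edgeR 4.0.16 (R 4.3.3), which kept 14661, and siE7 was compared with siNC by TMM scaling and the robust quasi-likelihood test over all of them. A gene was called at a Benjamini-Hochberg adjusted p-value under 0.05, and a DEG also had a log2 fold change beyond 1. CPM are counts divided by the TMM-scaled library size, by edgeR's cpm. Shares and ratios of counts were compared by exact two-sided permutation tests (smallest p 0.1). No 2 libraries agreed within sampling noise, and each is 1 replicate. Replicate numbers are not stated to pair the libraries, and the reported test did not pair them. Positions, transcripts, coding identity and GC content came from GENCODE v44 on GRCh38, to which 25283 of 25349 identifiers were matched without their version, and KRT17 carries another version there. Of each list the 3 genes with the smallest p, and for keratin lists the 3 with the highest level, were named, as were pseudogene copies of the 8 and the 5 genes most like the summed stress keratins. For that likeness 0.5 CPM was added before log2.

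Alternatives were DESeq2 1.42.0, limma-voom (limma 3.58.1), scaling by RLE, by upper quartiles or by library totals alone, no filter or 10 counts in every library, a replicate block, removal of each library's GC trend (lowess, span 0.3) with and without the block, copies summed, and each library left out in turn. The tests were tested on simulated data. Tables and figures were made with Python 3.11.15 and matplotlib 3.10.9.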

Additional observations from a re-analysis of the deposited data

How the results depend on the processing

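The log2 fold changes of KRT5, KRT15, KRT6B and KRT17 kept their direction and call in every alternative run. Library totals without TMM factors moved the median log2 fold change of all genes from 0.08 to 0.25. The number of the 8 keratins called higher was 2 with library totals, 2 with the GC trend removed and 2 with that and the replicate block, and 1 to 2 with each library left out in turn. The number called lower was 3 to 5 with a library left out, the highest without siE7 replicate 1. KRT16 turned to -0.11 without siE7 replicate 1 and KRT6C, at -0.74 to 0.0090 with a library left out, to 0.0090 without siE7 replicate 2. The difference in the stress to basal log2 ratio lay between -0.0078 and 0.053 with a library left out, and was -0.46 with KRT17 counted among the basal keratins (exact permutation p = 0.1). The difference in the share of every keratin gene lay between -0.083 and 0.17 points with a library left out, negative only without siE7 replicate 1, and was -0.19 points with TMM-scaled library sizes, alternatives added after the data were seen. Counts of called differentiation keratins were 0 to 2 with a library left out and 1 with the GC trend removed, without and with the block. Those of regulators were 3 to 17 with a library left out and 16 with the GC trend removed, without and with the block, and those of filament partners 11 to 20 and, with the GC trend removed, 20. The cause of these shifts was not tested. The type II to type I difference was -0.95 over all keratin genes, an alternative added after the data were seen.

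Same-numbered siNC and siE7 libraries did not deviate together (correlations of -0.055, -0.019 and -0.079). With 3 libraries per group and siE7 replicate 1 apart from the others, this cannot exclude a shared culture or batch. With the replicate block 2590 genes were called higher and 2357 lower, against 2639 and 2351, and 4 of the 8 keratins remained called. For the type II to type I difference of -0.76 an exact sign-flip permutation test over the 3 numbered pairs gave p = 0.25, the smallest that pairing allows. Low counts limit KRT6C, for which a fold change of the size found cannot be told from 0, and 3 libraries per group limit every permutation test.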

Other observations

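Of 34 further keratin genes with a count, 13 were tested, 0 rose and 9 fell (edgeR's quasi-likelihood test, adjusted p-value under 0.05). Over all tested genes 18.0% rose and 16.0% fell. Hair keratins were in no list and are named here after their values were seen. KRT81, a type II hair keratin, was at 4084 ± 321 CPM with siNC and 2123 ± 264 CPM with siE7 (SD, n = 3), a log2 fold change of -0.94 (edgeR adjusted p = 1.9e-04), and took more counts than KRT5 in every library. Its near relatives KRT86 and KRT83 fell by 1.61 (edgeR adjusted p = 8.3e-06) and 0.69 (edgeR adjusted p = 0.028) on the log2 scale. These genes share long stretches of sequence with KRT81, and how reads were split among them is not given in the sources used here.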
